A study of Drosophila melanogaster with 9 samples.

Results

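Mesodermal cells of Drosophila embryos that carry a deficiency of jumu were compared directly with those of embryos that are null for CHES-1-like, which asks where in the genome the expression profiles of these Forkhead mutants part from each other. The comparison uses 6 of the 9 arrays of the series, 3 per mutant, and was chosen by genotype alone. Every array probe set that is not an array control entered it, which left 18769 of 18952. In the jumu deficiency the embryos were homozygous for Df(3R)Exel6157, with twi-GAL4 on one copy of the deficiency chromosome and UAS-2EGFP on the other. In the CHES-1-like null the labels call them homozygous for Df(1)CHES-1-like1, a deletion on the X chromosome of which males can carry a single copy, and they carried twi-GAL4 and UAS-2EGFP, which the title writes together. The 3 control arrays, of twi-GAL4 UAS-2EGFP embryos with neither deletion, serve to estimate the spread and to place the mutant levels. All groups share the driver and the reporter, so the green fluorescent cells that were sorted are those with twi-GAL4 activity. Embryos reached stage 11 to early stage 12 at 25 °C, and each array took 2 to 5 µg of total RNA. The arrangement or the number of copies of the transgenes may differ between the mutants, and a difference between them cannot be told apart from one of genetic background.

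jumu and CHES-1-like encode Forkhead factors, a family of transcription factors that bind DNA through a winged-helix domain and act in the specification and division of many embryonic cell types. In the Drosophila mesoderm the FGF receptor Heartless, encoded by htl, directs the spreading of the mesoderm and the specification of heart and muscle progenitors, and Wnt signals act on the same progenitors. The series concerns the part of both Forkhead genes in specifying cardiac progenitors through FGF and Wnt receptors. At stage 11 the mesoderm divides into cardiac, somatic muscle, visceral muscle and fat body primordia, while haemocytes, the blood cells of the head mesoderm, migrate and secrete basement membrane.

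Signals are deposited log2 values per probe set, and a difference is the mean of the jumu deficiency minus that of the CHES-1-like null, given with its standard error (SE). A gene is called higher or lower where the limma p-value, adjusted over all 18769 probe sets, is below 0.05. A gene with several probe sets is represented by the brightest. The labels do not say that arrays of a group came from separate collections or sorts, so the p-values measure the spread between arrays, which may be technical. Odorant and gustatory receptor genes, with 125 probe sets, served as an empirical background, whose signals had their median at 4.15 and their 95th percentile at 5.28. A difference against a mean below 5.28, here called background, understates the change. All 11 measured markers of the stage 11 mesoderm, among them twi, htl and bin, lay above that level in both mutants, with lowest means of 8.35 in the jumu deficiency and 8.20 in CHES-1-like nulls. Arrays of a mutant correlated with each other at Pearson's r of 0.998 to 0.999 over probe sets, and arrays of different mutants at 0.985 to 0.987, figures that share every gene and describe likeness only. Of the array control transcripts, actin had a 3′ minus 5′ signal of 1.26 ± 0.03 in the jumu deficiency against 0.94 ± 0.06 in CHES-1-like nulls (SD, n = 3 each, exact two-sided permutation p = 0.1, the smallest this design allows). For eIF-4a the values were 1.35 ± 0.03 and 1.15 ± 0.05 (exact p = 0.1), for GAPDH 0.42 ± 0.16 and 0.08 ± 0.25 (exact p = 0.2), and for 18S ribosomal RNA 0.76 ± 0.05 and 0.81 ± 0.11 (exact p = 0.5). The part of such a difference in RNA quality in the results was not tested.

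The mutants differed widely but mostly by small amounts. In the jumu deficiency 3173 probe sets were called higher and 3291 lower, 16.9% and 17.5% of those tested and 34.4% together. The 3 arrays of one mutant did not overlap the 3 of the other at 43.6% of probe sets and in 51.7% of genes. The median size of a called difference was 0.36, and 68.4% of the calls were smaller than 0.5 on the log2 scale. Differences of at least 2-fold were called at 291 probe sets in the higher and 288 in the lower direction, 3.08% of all, and differences of at least 4-fold at 68 and 52. By gene, 2539 of 11982 were higher and 2529 lower, or 21.2% and 21.1% (42.3% together), and the median difference over all genes was 0.00. At least 2-fold calls were made for 205 genes higher and 237 lower, or 1.71% and 1.98% (3.69% together). In 106 of the 291 probe sets at least 2-fold higher the CHES-1-like null mean lay below background, and in 64 of the 288 at least 2-fold lower the jumu deficiency mean did.

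**Figure D1:**
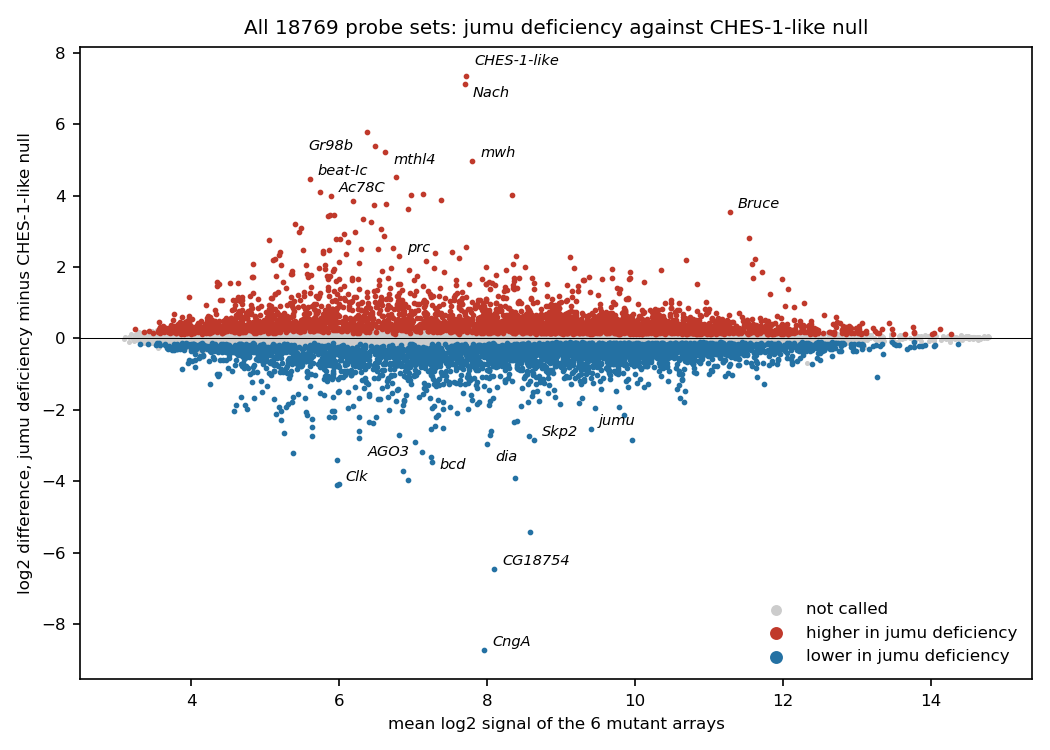
Each point is 1 of 18769 probe sets, with the mean log2 signal of the 6 mutant arrays on the horizontal axis and the log2 difference, jumu deficiency minus CHES-1-like null, on the vertical axis. Called probe sets are coloured (3173 higher, 3291 lower in the jumu deficiency), and most lie within 0.5 of 0, while single genes reach 7.36 for CHES-1-like and −8.74 for CngA.

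The deleted genes were the first check of the labels. CHES-1-like read 11.38, 11.61 and 11.19 in the jumu deficiency arrays, against 3.87, 4.32 and 3.92 in CHES-1-like null arrays. The null values lie within the background, and the difference was 7.36 ± 0.13 (SE, limma adjusted p = 6.66e-10), or 164-fold as measured, which the background in the null makes an understatement. The further CHES-1-like probe set differed by 1.28 ± 0.20 in the same direction (limma adjusted p = 0.000767). jumu read 8.18, 8.21 and 7.99 in the jumu deficiency arrays, against 10.66, 10.74 and 10.61 in CHES-1-like null arrays. It was lower by 2.54 ± 0.07 (SE, limma adjusted p = 7.68e-09), or 5.83-fold, and the deficiency values stayed well above the background level of 5.28. Whether the remaining jumu signal arises inside the deleted interval was not tested. In controls jumu averaged 10.52 ± 0.06 and CHES-1-like 12.00 ± 0.03 (SD, n = 3).

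The FGF receptor gene htl was higher in the jumu deficiency. Its arrays read 10.30, 10.33 and 10.22 in the jumu deficiency and 9.49, 9.54 and 9.26 in CHES-1-like nulls, without overlap, as in 51.7% of all genes. The difference was 0.85 ± 0.07 (SE, limma adjusted p = 1.67e-05). Against the controls that both mutants share, htl stood 0.53 higher in the jumu deficiency and 0.32 lower in CHES-1-like nulls (a difference of −0.32). It no longer passed in limma's test for a change beyond 1.5-fold. The gene was chosen because the series names FGF receptors. btl, an FGF receptor gene of the trachea, was also higher, by 0.85 ± 0.07 (8.71 ± 0.03 in the jumu deficiency against 7.85 ± 0.08 in CHES-1-like nulls, SD, n = 3 each, limma adjusted p = 7.64e-06).

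The genes with the largest excess in the jumu deficiency were mostly dim or at background in CHES-1-like nulls. Nach, a member of the DEG/ENaC family of sodium channels, read 11.35, 11.15 and 11.28 in the jumu deficiency, against 4.18, 4.03 and 4.20 in CHES-1-like nulls, a difference of 7.12 ± 0.06 (SE, limma adjusted p = 2.07e-11). The gustatory receptor gene Gr98b read 9.23, 9.06 and 9.27 in the jumu deficiency and 3.69, 3.84 and 3.87 in CHES-1-like nulls. For mthl4, of the methuselah-like G protein-coupled receptors, the values were 9.20, 9.23 and 9.28 in the jumu deficiency and 3.99, 4.04 and 3.99 in CHES-1-like nulls. In all 3 genes the arrays of the mutants lay at least 5 log2 units apart, and the CHES-1-like null and control means differed by at most 0.12. mwh, which limits actin prehairs to the edge of wing cells, read 10.32, 10.17 and 10.35 in the jumu deficiency, against 5.30, 5.22 and 5.40 in CHES-1-like nulls. Its second probe set lay at background in both mutants and was not called (−0.09 ± 0.06, limma adjusted p = 0.28). beat-Ic, a cell surface protein gene of the beaten path family, differed by 4.45 ± 0.09, the adenylyl cyclase gene Ac78C by 3.99 ± 0.07 and nompA, whose product caps mechanosensory dendrites, by 3.88 ± 0.09. CG31176, CG31601, mthl8 and CG14022 followed at 4.51, 4.09, 3.77 and 3.75. The second probe sets of mthl4, mthl8 and nompA were called higher too, at 5.77, 2.99 and 0.28.

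Not every gene of this group was dim in CHES-1-like nulls, nor was the jumu deficiency always the mutant away from the controls. Bruce, a large ubiquitin-conjugating inhibitor of apoptosis, read 13.06, 12.98 and 13.09 in the jumu deficiency, against 9.60, 9.48 and 9.47 in CHES-1-like nulls, both far above background. Its difference of 3.53 ± 0.05 (SE, limma adjusted p = 3.03e-10) was 11.5-fold. PGRP-LE, a receptor for bacterial peptidoglycan, read 7.54, 7.60 and 7.68 in the jumu deficiency and 4.16, 4.43 and 3.90 in CHES-1-like nulls, with a control mean of 7.69. The difference from the shared controls was −0.09 in the jumu deficiency (limma adjusted p = 0.62) and −3.53 in CHES-1-like nulls (limma adjusted p = 8.2e-08). The protein phosphatase 1 gene Pp1-13C had values of 7.77, 8.27 and 8.30 in the jumu deficiency and 4.20, 4.46 and 4.10 in CHES-1-like nulls, with the controls between them at 5.83 ± 0.09 (SD, n = 3).

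**Figure D2:**
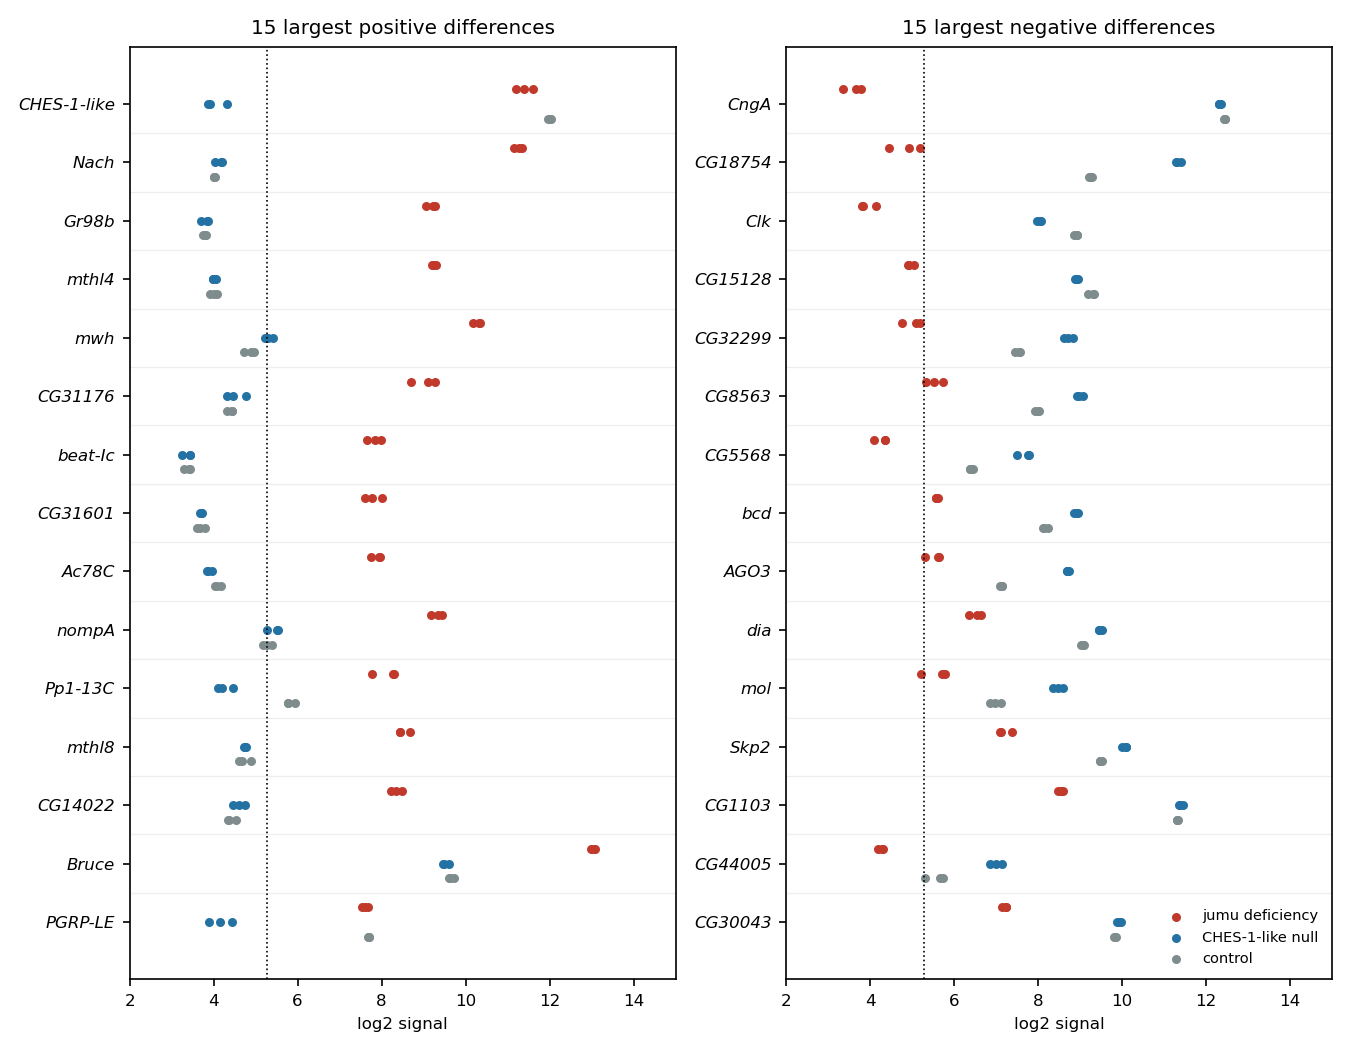
Log2 signal of every array for the 15 genes of largest positive (left) and largest negative (right) difference, with the jumu deficiency above the CHES-1-like null and the control in each row. Each point is 1 array and the dotted line is the background level of 5.28. The genes were chosen for arrays that do not overlap between the mutants. In PGRP-LE, CHES-1-like, mol and CG44005 the CHES-1-like null is the mutant that lies further from the controls. For mol the jumu deficiency and the CHES-1-like null differ from the controls by −1.41 and 1.49, and for CG44005 by −1.31 and 1.43.

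The largest measured negative difference was that of CngA, a subunit gene of the cyclic nucleotide-gated channels of sensory cells. It averaged 3.59 in the jumu deficiency, within background, and 12.33 in CHES-1-like nulls, a difference of −8.74 ± 0.09 (SE, limma adjusted p = 3.75e-11). Its second probe set lay at background in both mutants, at 4.47 and 4.57, and was not called. Clk, the clock transcription factor gene, was lower by 4.11 and CG18754 by 6.47. bcd, the anterior determinant deposited by the mother, read 5.58, 5.61 and 5.56 in the jumu deficiency, against 8.94, 8.86 and 8.89 in CHES-1-like nulls (−3.31 ± 0.04, limma adjusted p = 1.6e-10). A second bcd probe set differed by −1.20. AGO3, an Argonaute of the piRNA pathway, read 5.31, 5.65 and 5.63 in the jumu deficiency and 8.70, 8.69 and 8.73 in CHES-1-like nulls (−3.18 ± 0.08). Both genes stayed just above background in the jumu deficiency.

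Regulators of cell shape and division were among these genes. dia, a formin that nucleates actin for cytokinesis, read 6.54, 6.36 and 6.64 in the jumu deficiency, against 9.53, 9.46 and 9.44 in CHES-1-like nulls (−2.96 ± 0.07, limma adjusted p = 4.1e-09). Skp2, the substrate receptor of an SCF ubiquitin ligase, read 7.10, 7.12 and 7.39 in the jumu deficiency and 10.09, 9.99 and 10.10 in CHES-1-like nulls (−2.86 ± 0.07, limma adjusted p = 7.68e-09). Both were also lower in the jumu deficiency than in the controls, by 2.54 and 2.29 on the log2 scale. mol, a maturation factor of dual oxidase, differed by −2.90 ± 0.14, and CG15128, CG32299, CG8563, CG5568, CG1103, CG44005 and CG30043 by −3.96 to −2.72. Of 43 genes with at least 2-fold calls and several probe sets, all further probe sets were called the same way in 20, some in 6 and none in 17, and in 1 gene a further probe set was called the opposite way.

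Cell division genes were lower in the jumu deficiency as a group. Of 46 measured genes of mitosis and cytokinesis 39 were lower and 2 higher, with a median difference of −0.55, against 21.1% lower and 21.2% higher among all genes. The all-gene shares, here and for the lists below, include genes at background. Among genes above background, 57.4% to 61.2% were called in either direction on the arms other than chromosome 4. pim, the securin of sister chromatid separation, read 8.92, 8.80 and 8.75 in the jumu deficiency and 10.74, 10.74 and 10.73 in CHES-1-like nulls (−1.91 ± 0.05, limma adjusted p = 1.11e-08). twe, a Cdc25 phosphatase known from meiosis, read 5.18, 5.08 and 5.26 in the jumu deficiency, at background, and 7.37, 7.51 and 7.24 in CHES-1-like nulls. tum, which builds the central spindle, differed by −1.31 ± 0.04, the condensin gene glu by −1.21 ± 0.04 and the kinetochore gene Cenp-C by −1.20 ± 0.05. The mitotic cyclin genes CycB and CycB3 were lower by 0.62 and 0.70. Relative to the mean of the 6 mutant arrays, the median over the list was −0.30 to −0.25 in the jumu deficiency arrays and 0.27 to 0.31 in CHES-1-like null arrays, with the control arrays between them at 0.07 to 0.11. The members that were higher are Cks85A, at 0.36 ± 0.04, and Septin1, at 0.15 ± 0.04.

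Most DNA replication and G1/S genes were lower in the jumu deficiency than in CHES-1-like nulls, but the controls held another place than for mitosis. Of 40 measured genes 24 were lower and 7 higher, with a median of −0.21. Relative to the mean of the mutant arrays, the list median was −0.13 to −0.08 in the jumu deficiency and 0.06 to 0.13 in CHES-1-like nulls. Control arrays lay below both, at −0.18 to −0.14. By this measure the CHES-1-like null was the mutant further from the controls. RfC38, a subunit of the clamp loader, read 8.09, 8.21 and 8.23 in the jumu deficiency and 9.48, 9.49 and 9.48 in CHES-1-like nulls (−1.31 ± 0.05, limma adjusted p = 8.09e-08). The licensing factor gene Cdc6 differed by −1.04 ± 0.05, Mcm10 by −0.91 ± 0.05 and the kinase gene Cdk2 by −0.89 ± 0.05. For RfC38, Cdc6, Mcm10 and Cdk2 the control means lay between the mutants, at 8.62, 9.72, 8.36 and 9.42. The sliding clamp gene PCNA was lower by 0.57 and CycE, the G1/S cyclin, by 0.54. Members called higher included Cdc45, of the replicative helicase, at 0.44 ± 0.04 and Rbf, which restrains entry into S phase, at 0.27 ± 0.04.

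Genes of the germ line and of early patterning, many of them known as maternal transcripts, were mostly lower in the jumu deficiency. In the germ cell and piRNA list 20 of 35 genes were lower and 5 higher (median −0.39). tej, a Tudor domain protein of the piRNA pathway, read 4.90, 5.22 and 4.82 in the jumu deficiency, within background, and 7.77, 7.60 and 7.34 in CHES-1-like nulls (−2.59 ± 0.13, limma adjusted p = 3.32e-07). rhi, which marks piRNA clusters on chromatin, read 6.55, 6.51 and 6.56 in the jumu deficiency, against 8.48, 8.48 and 8.44 in CHES-1-like nulls (−1.93 ± 0.04, limma adjusted p = 2.91e-09). In both genes the controls lay between the mutants, at 6.17 and 7.11. BoYb and krimp differed by −2.29 and −2.08, and aub by −1.26 ± 0.04. The germ plasm genes vas and osk, defining markers of germ cells, lay at background in both mutants, with means of 4.63 and 4.94 in the jumu deficiency against 4.68 and 4.92 in CHES-1-like nulls, and were not called. The summed log2 signal of the list was 13.15 to 13.22 in the jumu deficiency, 13.63 to 13.71 in CHES-1-like nulls and 13.44 to 13.47 in controls. Among the higher members were moon at 0.66 ± 0.09 and del at 0.60 ± 0.15, both known from piRNA cluster transcription.

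In the early patterning list 19 of 29 genes were lower and 2 higher (median −0.39). Beside bcd, the terminal receptor gene tor differed by −2.20 and lay at background in the jumu deficiency. The gap gene kni read 7.96, 8.22 and 8.01 in the jumu deficiency, against 9.55, 9.67 and 9.52 in CHES-1-like nulls (−1.52 ± 0.07, limma adjusted p = 2.99e-07). Its relative knrl differed by −1.05 ± 0.06 and hkb, a regulator of the embryo's ends, by −0.98 ± 0.05. hb, gt and eve, which also pattern the early embryo, were not called, at 0.04, 0.04 and 0.06.

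Markers of ectodermal cell types were lower in the jumu deficiency than in CHES-1-like nulls. In sorted bulk cells a changed number of such cells in either mutant and a changed amount of RNA per cell cannot be told apart. In the epidermis and epithelial junction list 26 of 32 genes were lower and 3 higher, with a median of −0.62. crb, the determinant of the apical membrane, read 9.50, 9.65 and 9.46 in the jumu deficiency and 10.82, 10.85 and 10.76 in CHES-1-like nulls (−1.27 ± 0.05, limma adjusted p = 1.53e-07). grh, the epidermal barrier regulator, read 9.88, 9.90 and 9.82 in the jumu deficiency and 11.32, 11.34 and 11.18 in CHES-1-like nulls (−1.41 ± 0.05, limma adjusted p = 8.64e-08). Septate junction genes followed, with Gli at −0.97 ± 0.04, sinu at −0.82, Cont at −0.77 and Nrx-IV at −0.77. The summed log2 signal of the list was 15.33 to 15.37 in the jumu deficiency, 15.84 to 15.89 in CHES-1-like nulls and 15.36 to 15.39 in controls. By this measure the jumu deficiency lay close to the controls and the CHES-1-like null above both.

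In the neural list 22 of 29 genes were lower and 1 higher, with a median of −0.44. repo, the glial homeobox gene, read 7.49, 7.47 and 7.62 in the jumu deficiency and 8.61, 8.60 and 8.56 in CHES-1-like nulls (−1.06 ± 0.06, limma adjusted p = 1.4e-06). The neural Sox gene D differed by −0.70 ± 0.04 and elav, a pan-neuronal RNA-binding protein gene, by −0.68. The member called higher was mira, which segregates fate determinants in neuroblasts, at 0.13. Summed log2 signals of the neural list were 14.64 to 14.86 in the jumu deficiency, 15.17 to 15.28 in CHES-1-like nulls and 14.92 to 14.95 in controls.

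Of 21 trachea and salivary gland genes 12 were lower and 4 higher (median −0.29), with pio, an apical matrix protein of tracheal tubes, at −1.13 ± 0.05 and the chitin deacetylase gene verm at −0.73 ± 0.04. One of 2 further probe sets of pio was called the same way and the other was not called. Summed log2 signals were 14.81 to 14.89 in the jumu deficiency, 15.01 to 15.04 in CHES-1-like nulls and 14.86 in all 3 controls. Of 14 endoderm genes 7 were lower and 3 higher (median −0.14), with fkh at −0.92 ± 0.09 and Itgbn, the midgut integrin, at 1.03 ± 0.09. Summed log2 signals of the endoderm list were 13.05 to 13.17 in the jumu deficiency, 13.36 to 13.42 in CHES-1-like nulls and 13.09 to 13.14 in controls. These lists share genes: grh, Nrg and nrv2 stand in both the epidermis and neural lists, and serp, verm and vvl in both the epidermis and trachea lists. The part of cells from outside the mesoderm in the other differences was not tested.

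**Figure D3:**
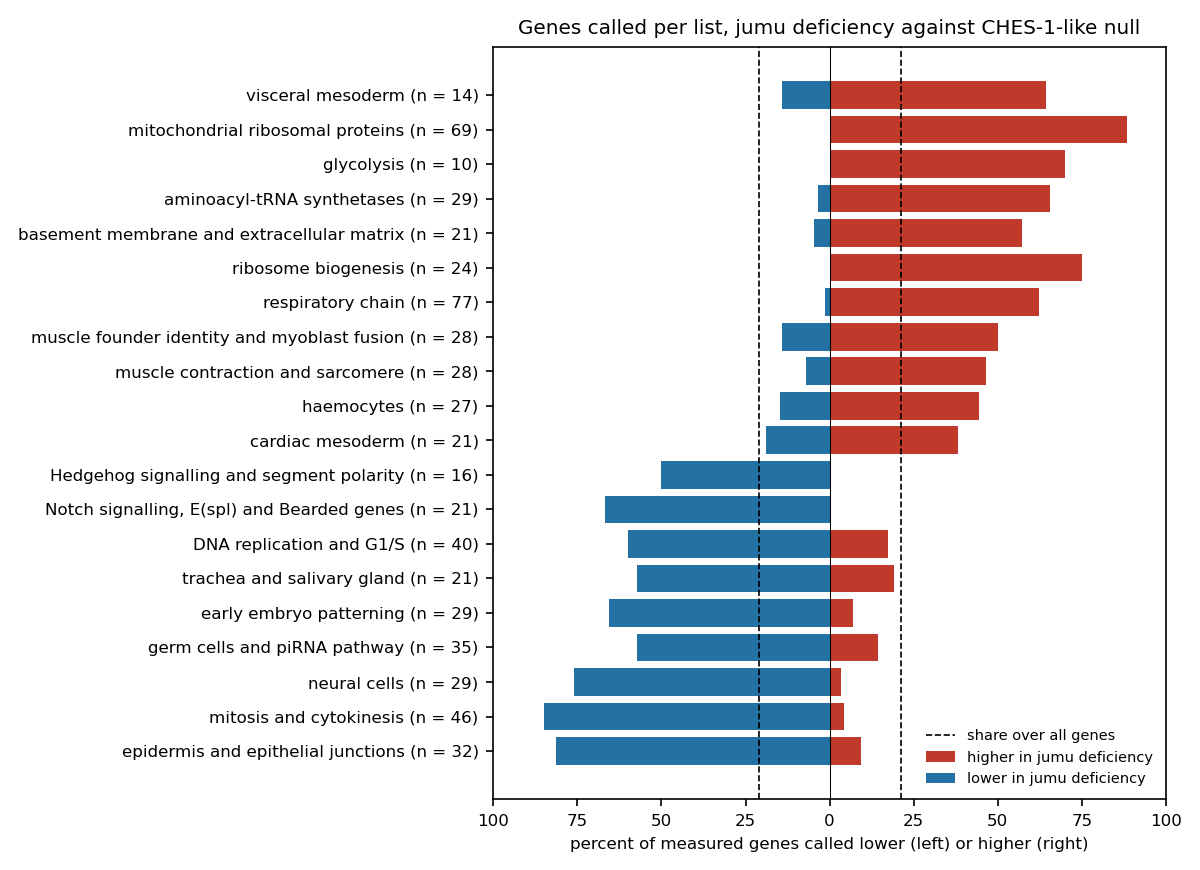
Percent of the measured genes of 20 lists, picked from 47 after their results were seen, that were called higher (right) or lower (left) in the jumu deficiency than in CHES-1-like nulls. Dashed lines give the shares over all genes, 21.2% higher and 21.1% lower, which include genes at background. Among genes above background, 57.4% to 61.2% were called in either direction on the arms other than chromosome 4. Mitosis (39 of 46 lower) and epidermis (26 of 32 lower) have the longest bars to the left, and mitochondrial ribosomal proteins (61 of 69 higher) and ribosome biogenesis (18 of 24 higher) to the right.

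Signalling pathways of the embryo differed unequally. Of 21 Notch pathway, E(spl) and Bearded genes 14 were lower (limma), by 0.12 to 0.46, and the count called higher was 0, with 1 higher and 14 lower at an unadjusted p under 0.05. E(spl)m7-HLH, a repressor induced by Notch, read 12.21, 12.24 and 12.22 in the jumu deficiency and 12.54, 12.55 and 12.58 in CHES-1-like nulls (−0.34 ± 0.04, limma adjusted p = 6.53e-05). Ocho differed by −0.41 ± 0.04, Brd by −0.32 ± 0.05 and E(spl)m5-HLH by −0.31 ± 0.04. The differences were small, and the arrays of the mutants did not overlap in these 4 genes, as in 51.7% of all genes. In limma's test for a change beyond 1.5-fold 0 of the Notch genes passed, also at an unadjusted p under 0.05.

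Of 16 Hedgehog and segment polarity genes 8 were lower (limma) and 0 higher, against 9 and 1 at an unadjusted p under 0.05, and here single genes moved further. The homeobox gene en, which marks posterior compartments, read 8.94, 9.18 and 8.88 in the jumu deficiency and 10.53, 10.52 and 10.41 in CHES-1-like nulls (−1.49 ± 0.08, limma adjusted p = 4.53e-07). The receptor gene ptc read 6.88, 7.05 and 6.89 in the jumu deficiency, against 8.13, 8.24 and 8.10 in CHES-1-like nulls (−1.22 ± 0.06, limma adjusted p = 5.18e-07). The ligand gene hh differed by −0.95 ± 0.05 and inv, the neighbour of en, by −0.79 ± 0.05. smo and Su(fu), which carry the signal inside the cell, were not called, at −0.00 and −0.04. The controls held different places: for en they lay between the mutants at 9.74 ± 0.04, for hh near the jumu deficiency at 7.08 ± 0.07, and for ptc above both at 8.62 ± 0.06 (SD, n = 3).

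The list of FGF, EGF receptor and Ras MAPK genes went both ways, with 7 of 21 higher and 5 lower (median 0.05). Counted among the 7 is ras, at 0.48 ± 0.04, which is raspberry, a purine synthesis gene, and not a Ras GTPase gene. Apart from htl and btl, the adaptor gene drk was higher by 0.47 ± 0.04 and Egfr by 0.33, while pyr and ths, the ligands of Heartless, were lower by 0.61 and 0.50. The receptor genes and ligand genes of this branch stood on opposite sides of 0. cic, a repressor relieved by MAPK, was lower by 0.77. Of 11 measured Wnt genes 2 were higher and 3 lower (median −0.05): the receptor gene drl at 0.30 ± 0.04 and por, which acylates Wnt proteins, at 0.36 ± 0.10, against Wnt6 at −0.39 ± 0.07, Notum at −0.34 ± 0.10 and gish at −0.17. The receptor gene fz was not analysed here. Of 24 Dpp and TGF-beta genes 5 were higher and 6 lower (median −0.05), with the ligand gene dpp at −0.73 ± 0.12 and the protease gene tld at −0.82 ± 0.08. The Wnt and Dpp shares lie near those over all genes, which include genes at background. Both mutant means lay below background for 0 of the Wnt genes and 6 of the Dpp genes. Among genes above background, 57.4% to 61.2% were called in either direction on the arms other than chromosome 4. The Wnt list names 33 symbols, of which 11 are counted here, so it does not describe the whole pathway.

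Within the mesoderm, visceral mesoderm genes were higher in the jumu deficiency. Of 14 measured genes 9 were higher and 2 lower, with a median of 0.39. tey, a muscle and visceral transcription factor gene, read 9.56, 9.54 and 9.57 in the jumu deficiency and 8.38, 8.48 and 8.28 in CHES-1-like nulls (1.17 ± 0.06, limma adjusted p = 2.77e-07). HLH54F, which specifies the longitudinal visceral muscle founders, read 10.64, 10.63 and 10.69 in the jumu deficiency and 9.96, 9.92 and 9.95 in CHES-1-like nulls. The trunk visceral regulators bap and bin were higher by 0.69 and 0.51. Pvf1, a growth factor gene of the PDGF and VEGF type, went the other way, at −1.17 ± 0.09. The general mesoderm markers were mixed, with 6 of 11 higher and 2 lower, among them twi at 0.32 ± 0.05 and sna at −0.92 ± 0.04, which read 9.25, 9.34 and 9.35 in the jumu deficiency and 10.28, 10.19 and 10.25 in CHES-1-like nulls.

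Cardiac genes were called higher in 8 of 21 cases and lower in 4, with a median of 0.06. prc, a matrix protein of the pericardial cells, read 7.85, 7.93 and 8.09 in the jumu deficiency, against 5.54, 5.59 and 5.84 in CHES-1-like nulls (2.31 ± 0.08, limma adjusted p = 6.2e-08). Hand, a regulator of heart and circular visceral muscle, read 9.27, 9.20 and 9.25 in the jumu deficiency and 8.53, 8.59 and 8.45 in CHES-1-like nulls (0.72 ± 0.07, limma adjusted p = 2.07e-05). svp, which sets ostial cell identity, was higher by 0.56 and Doc2, a T-box gene of the cardiac progenitors, by 0.26. The GATA gene pnr, the homeobox gene tup, odd and lbl were lower, by 0.28, 0.32, 0.56 and 0.64. eve, which marks a subset of pericardial progenitors, was not called at 0.06.

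Somatic muscle genes were higher more often than lower. Of 28 founder and fusion genes 14 were higher and 4 lower (median 0.16). sns, the receptor of fusion-competent myoblasts, read 10.23, 10.23 and 10.25 in the jumu deficiency, against 8.58, 8.49 and 8.50 in CHES-1-like nulls (1.71 ± 0.04, limma adjusted p = 4.1e-09). Its arrays did not overlap, like those of 51.7% of all genes, and the controls lay between the mutants at 9.40. The founder receptor gene kirre differed by 0.43 ± 0.04 and the scaffold gene rols by 0.44 ± 0.04, while Pax, the paxillin gene, was lower by 1.09 ± 0.05. Of 28 muscle contraction genes 13 were higher and 2 lower (median 0.10). Mlc2, a myosin light chain gene, read 9.32, 9.26 and 9.23 in the jumu deficiency and 8.45, 8.51 and 8.15 in CHES-1-like nulls (0.90 ± 0.08, limma adjusted p = 2.41e-05). The tropomyosin gene Tm2 differed by 0.78 ± 0.05, the troponin gene up by 0.95 and bt, the projectin gene, by 0.92. Over the whole contraction list the controls lay above both mutants, with median deviations from the mean of the 6 mutant arrays of 0.11 to 0.12 in the jumu deficiency, −0.13 to −0.08 in CHES-1-like nulls and 0.34 to 0.38 in controls. Mlc1, another light chain gene, averaged 9.76 in the jumu deficiency, 9.19 in CHES-1-like nulls and 10.14 in controls, while the Mlc2 and Tm2 control means of 9.27 and 8.55 lay nearer to the jumu deficiency.

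Some haemocyte genes and most basement membrane genes were higher in the jumu deficiency. Of 27 haemocyte genes 12 were higher and 4 lower (median 0.09). Glt, a secreted glutactin, read 10.82, 10.75 and 10.76 in the jumu deficiency and 9.19, 9.10 and 8.95 in CHES-1-like nulls (1.70 ± 0.06, limma adjusted p = 4.33e-08). lz, the Runx gene of the crystal cell lineage, read 6.35, 6.17 and 6.21 in the jumu deficiency and 4.93, 4.92 and 5.04, at background, in CHES-1-like nulls (1.28 ± 0.07, limma adjusted p = 6.29e-07). The prophenoloxidase genes of crystal cells, PPO2 and PPO1, differed by 0.98 ± 0.04 and 0.90 ± 0.05, and the phagocytic receptor gene NimC1 by 1.74. For lz, PPO2 and PPO1 the CHES-1-like null was the mutant further from the controls, at −1.05, −0.86 and −0.84. The jumu deficiency differed from the controls by 0.23, 0.13 and 0.06 in these genes. For Glt the jumu deficiency lay further away, at 1.52 against −0.18 in CHES-1-like nulls. The lineage regulators srp and ush and the plasmatocyte genes Hml, Pxn and Pvr were not called, at −0.10, 0.00, 0.04, −0.01 and −0.01. Summed log2 signals of the list were 16.07 to 16.09 in the jumu deficiency, 15.82 to 15.83 in CHES-1-like nulls and 15.80 to 15.81 in controls.

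Of 21 basement membrane and matrix genes 12 were higher and 1 lower, with a median of 0.27. The collagen IV chains vkg and Col4a1 differed by 1.23 ± 0.05 and 0.88 ± 0.04. vkg read 12.43, 12.38 and 12.50 in the jumu deficiency and 11.17, 11.15 and 11.28 in CHES-1-like nulls (limma adjusted p = 9.33e-08). trol, the perlecan gene, was higher by 1.52, SPARC by 0.65 and the laminin genes LanA and LanB1 by 0.18 and 0.14. The list shares Glt and Pxn with the haemocyte list and prc and Ndg with the cardiac list. Among 20 fat body and lipid genes 8 were higher and 4 lower, with the lipoprotein genes apolpp at 1.53 ± 0.05 and Apoltp at 1.41 ± 0.05 and the lipid transfer gene Mtp at −0.69 ± 0.04. The summed log2 signal of fat body genes was 14.19 to 14.24 in the jumu deficiency, 13.98 to 14.05 in CHES-1-like nulls and 14.10 to 14.13 in controls. Of 10 gonadal mesoderm genes 2 (20%) were higher and 4 (40%) lower, beside 21.2% and 21.1% over all genes. Their summed log2 signals were 14.11 to 14.18 in the jumu deficiency, 14.25 to 14.29 in CHES-1-like nulls and 14.30 to 14.34 in controls. The lower members include hh, at −0.95 ± 0.05, which also stands in the Hedgehog list, and SoxN, a Sox gene known from neural cells, at −0.44 ± 0.09. The part of the makeup of the sorted cells in these differences was not tested.

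**Figure D4:**
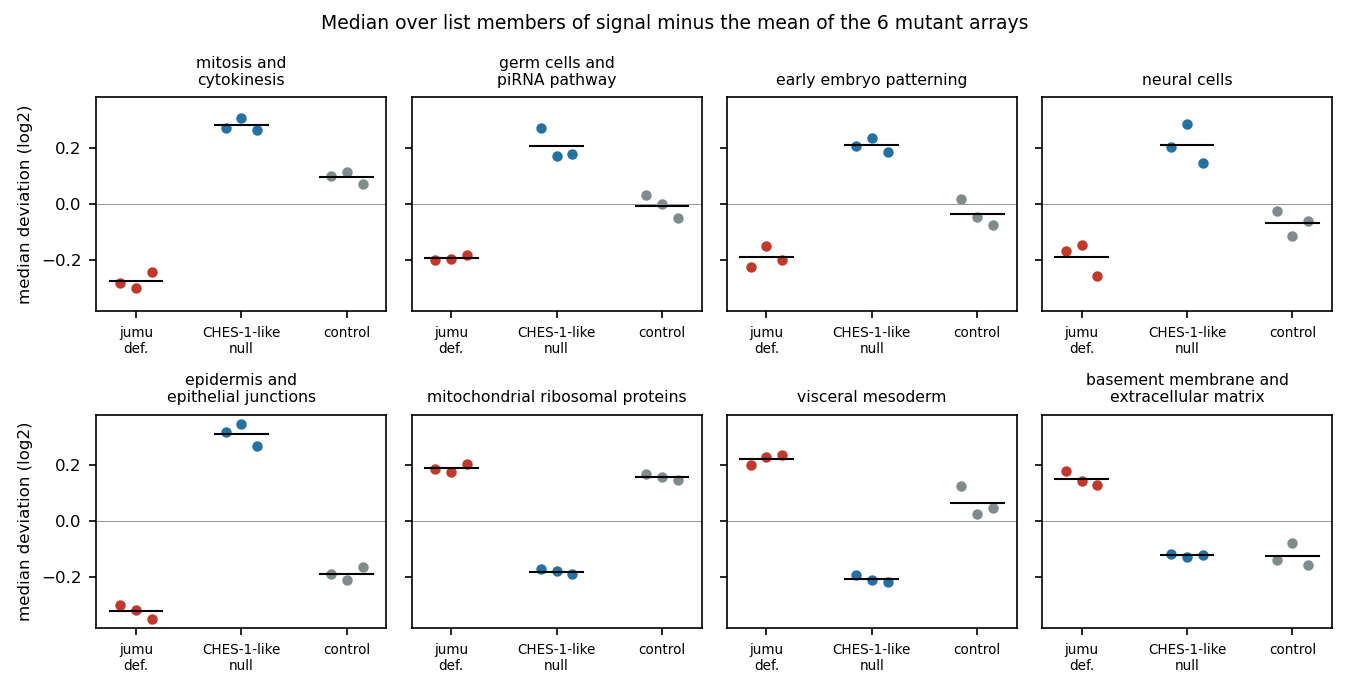
For 8 lists, the median over members of the log2 signal minus the member's mean over the 6 mutant arrays, 1 point per array, with a line at the group mean, for the jumu deficiency, the CHES-1-like null and the control. The mutants do not overlap in any of these panels, whose lists are among the 20 picked from 47 after their results were seen. The controls lie between the mutants for mitosis (0.07 to 0.11), near the jumu deficiency for mitochondrial ribosomal proteins (0.15 to 0.17) and near the CHES-1-like null for basement membrane genes (−0.16 to −0.08).

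Genes of protein synthesis and energy metabolism showed small differences mostly in 1 direction. Of 69 mitochondrial ribosomal protein genes 61 were higher in the jumu deficiency (limma) and 0 lower, against 63 and 0 at an unadjusted p under 0.05, with a median of 0.35. mRpS6 read 10.02, 9.98 and 9.96 in the jumu deficiency and 9.32, 9.31 and 9.24 in CHES-1-like nulls (0.70 ± 0.04, limma adjusted p = 1.35e-06). mRpS18B, mRpS34 and mRpS17 differed by 0.62, 0.60 and 0.60, each with an SE of 0.04. Of 77 respiratory chain genes 48 were higher and 1 lower (median 0.18), with the iron-sulphur subunit gene RFeSP at 0.53 ± 0.05 and SdhC, of succinate dehydrogenase, at 0.46 ± 0.04. The lower member was ND-51L1 at −0.71, a gene named for its likeness to a complex I subunit. In limma's test for a change beyond 1.5-fold 0 genes passed in either list, with 1 mitochondrial ribosomal protein gene and 0 respiratory genes at an unadjusted p under 0.05.

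Of 29 aminoacyl-tRNA synthetase genes 19 were higher and 1 lower (median 0.31), with the mitochondrial enzyme gene IleRS-m at 1.20 ± 0.06 and AlaRS at 0.57 ± 0.04. Of 10 glycolytic genes 7 were higher (limma) and 0 lower, against 8 and 0 at an unadjusted p under 0.05. Tpi read 8.70, 8.67 and 8.73 in the jumu deficiency, against 7.77, 7.71 and 7.87 in CHES-1-like nulls (0.92 ± 0.05, limma adjusted p = 8.46e-07), and controls were higher than both at 9.10. Of 24 ribosome biogenesis genes 18 were higher and 0 lower, with the same counts at an unadjusted p under 0.05 (median 0.19), led by Nnp-1 at 0.37 ± 0.05 and Polr1A, of RNA polymerase I, at 0.34 ± 0.04, of which 0 passed beyond 1.5-fold in limma, also at an unadjusted p under 0.05. Cytosolic ribosomal proteins, listed by name pattern, had fewer calls: 4 of 41 were higher, by 0.20 to 0.38, and 0 lower (6 and 0 at an unadjusted p under 0.05), with a median of 0.04. Those 4 were RpL37-2, RpLP0-like, RpS19b and RpL7-like, which by their names are further copies or relatives of ribosomal protein genes. Of 40 proteasome genes 4 (10%) were higher and 13 (32.5%) lower, beside 21.2% and 21.1% over all genes (median −0.05), with Prosalpha4 at −0.59 ± 0.05. Among 18 heat shock and chaperone genes 5 were higher and 5 lower, from Hsp26 at −1.20 ± 0.04 to the mitochondrial chaperonin gene Hsp60A at 0.62 ± 0.05. Relative to the mean of the mutant arrays, control medians were 0.13 for synthetases, 0.42 to 0.49 for glycolysis and 0.15 to 0.17 for ribosome biogenesis. In the jumu deficiency they were 0.14 to 0.16, 0.12 to 0.21 and 0.09 to 0.11. In CHES-1-like nulls they were −0.17 to −0.09, −0.21 to −0.14 and −0.11 to −0.09, further from the controls.

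Gene families of sensory reception and cell surface recognition had few members far apart. Of 112 odorant and gustatory receptor genes 9 were higher and 6 lower, but these genes set the background level, and 102 had both means below it. Beside Gr98b, its relatives Gr98d and Gr98c were higher, with 6.26, 6.05 and 6.40 for Gr98d in the jumu deficiency and 3.93, 4.10 and 4.04 in CHES-1-like nulls. In the methuselah family 7 of 15 (46.7%) were higher and 1 (6.67%) lower, beside 21.2% and 21.1% over all genes. The family median of 0.17 lies far below mthl4 and mthl8. Of 27 cyclic nucleotide genes 12 (44.4%) were higher and 4 (14.8%) lower. The guanylyl cyclase gene Gyc89Da was higher by 1.66 ± 0.10 and the phosphodiesterase gene Pde8 by 1.36, while the adenylyl cyclase gene Ac76E read 3.86, 4.06 and 4.35 in the jumu deficiency, at background, and 6.34, 6.36 and 5.94 in CHES-1-like nulls (−2.12 ± 0.14, limma adjusted p = 2.04e-06). Against the shared controls, Ac76E differed by −4.33 in the jumu deficiency and −2.21 in CHES-1-like nulls, and Gyc89Da by 4.33 and 2.67.

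Other Forkhead genes were examined beside the deleted pair. Of 16 measured family members, the deleted genes included, 4 (25%) were higher and 7 (43.8%) lower, beside 21.2% and 21.1% over all genes. The calls of CHES-1-like as higher and jumu as lower follow from the genotypes. fd102C differed by −1.02 ± 0.09, fkh, a regulator of salivary gland and gut, by −0.92 ± 0.09, fd96Cb by −0.64 and the insulin-responsive foxo by −0.51. bin was higher by 0.51 ± 0.04 and croc by 0.32. slp2, fd59A and fd3F were not called.

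Genes called at least 2-fold lay on every arm, from 2.89% of genes on X to 7.69% on chromosome 4. Arms were taken from RefSeq annotation, and called genes made up 43.5% of 1869 genes on X, 42.1% of 2203 on 2L, 43.9% of 2426 on 2R, 41.0% of 2344 on 3L and 41.8% of 2972 on 3R, against 42.3% over all genes. On the small chromosome 4, 40 of 65 genes were called, 15 higher and 25 lower, or 61.5%. Among genes above background the shares were 70.8% of 48 genes on chromosome 4 and 57.4% to 61.2% on the other arms. The calls on chromosome 4 included the zinc transporter gene Zip102B, at 2.28 ± 0.06, apolpp at 1.53 and fd102C at −1.02.

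The surroundings of the deleted genes were compared by the share of genes called. Of the 40 measured genes nearest to jumu on 3R, 20 on each side, 14 rose and 7 fell in the jumu deficiency, or 52.5%, and 5 differed at least 2-fold. Rfx, the adjacent measured gene on one side and a transcription factor gene of ciliated neurons, read 4.35, 4.08 and 4.25 in the jumu deficiency, within background, and 6.16, 6.23 and 6.08 in CHES-1-like nulls (−1.93 ± 0.08, limma adjusted p = 9.64e-08). On the other side lay Bruce at 3.53 and, nearer, CG31406 at 1.07 ± 0.10, whose means of 5.22 and 4.16 both lie below the background level. CG6293 and CG3999 differed by 1.12 and 1.42. Of the 40 measured genes nearest to CHES-1-like on X, 5 were higher and 3 lower, or 20%, and the count of 2-fold differences was 0, while 13 of these genes lay above background. Among genes above background the shares called were 56.7% of 30 near jumu and 61.5% of 13 near CHES-1-like, so the order of the shares over all neighbours did not hold there. Rfx, CG31406, CG6293 and CG3999 were named after their values were seen. The extent of the deletions was not used here.

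**Figure D5:**
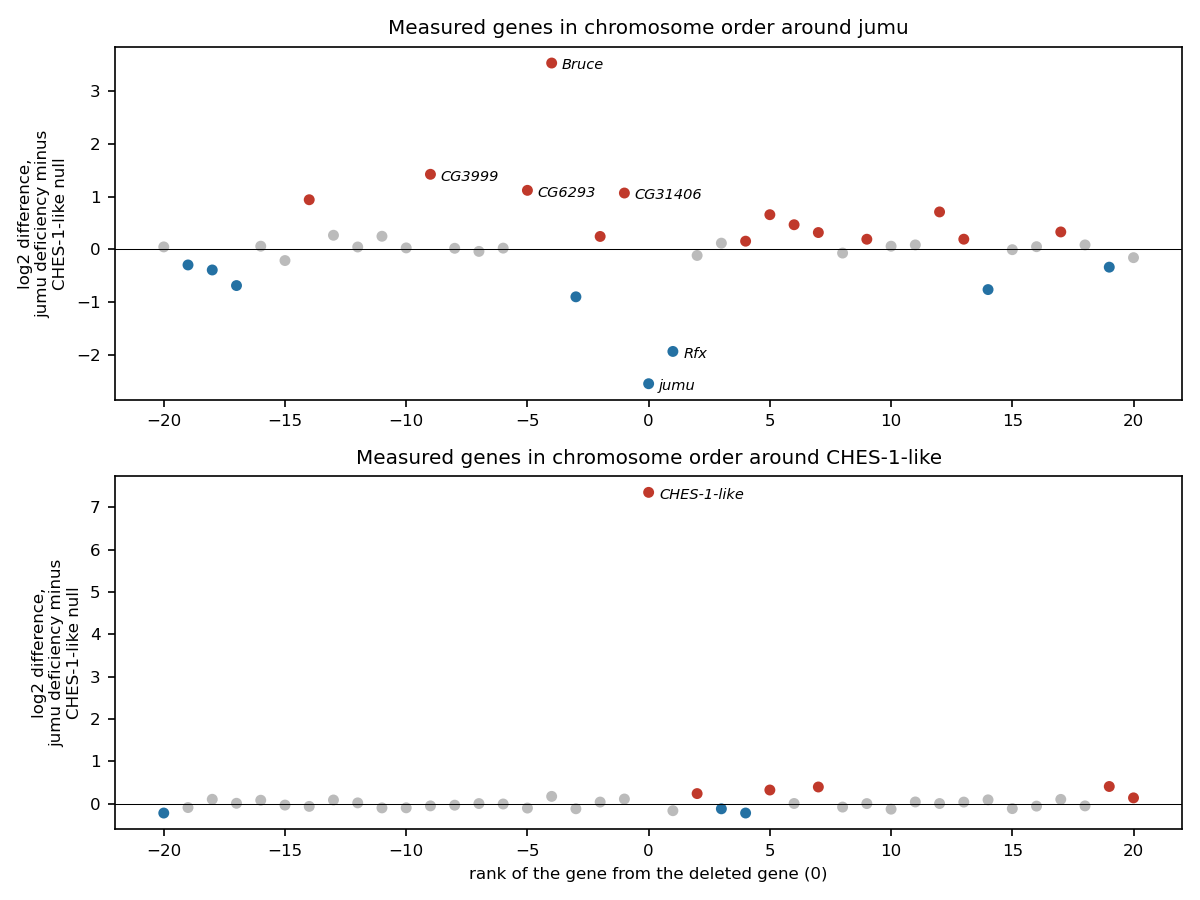
Log2 difference, jumu deficiency minus CHES-1-like null, of the measured genes in chromosome order around jumu (above) and CHES-1-like (below). The horizontal axis is the rank from the deleted gene at 0, and coloured points were called. Around jumu, Rfx (−1.93), Bruce (3.53), CG3999 (1.42), CG6293 (1.12) and CG31406 (1.07) differ at least 2-fold, and around CHES-1-like the deleted gene is the sole one that does.

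Some of the large differences fell in adjacent genes. Of 440 genes with at least 2-fold calls that could be placed in order, 47 (10.7%) formed 21 runs of neighbours that moved the same way, 4 of them with 3 or more genes, which were named after their values were seen. The longest run held NimB1, NimB2, NimB3 and NimB4 on 2L, a cluster of genes for Nimrod proteins of blood cells, higher by 1.49, 1.98, 1.69 and 1.69. NimB2 read 8.19, 8.35 and 8.27 in the jumu deficiency and 6.36, 6.26 and 6.24 in CHES-1-like nulls (limma adjusted p = 1.29e-08). krimp, CG15708 and CngA on 2R were lower by 2.08, 2.03 and 8.74. The others were mwh, meep and CG9119 on 3L, higher by 4.97, 2.24 and 1.11, and Gr98b, Gr98c and Gr98d on 3R, higher by 5.38, 1.54 and 2.21. Whether probe sets of clustered relatives share sequence was not tested.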

How the data were processed

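RNA of sorted GFP-positive cells was hybridised to Affymetrix Drosophila arrays, and the table holds the authors' deposited log2 signal per probe set, made with affy per the submitters' processing notes. The summarisation method and the version were not given in the sources used here. The depth limit is the number of arrays, 3 per group. After 183 array controls were set aside, 18769 probe sets were tested with limma 3.58.1 (lmFit and eBayes, R 4.3.3) in 1 fit over all 9 arrays with 6 residual degrees of freedom, and p-values were adjusted by Benjamini-Hochberg. GEO's platform annotation gave 1 gene for 13647 probe sets, several for 402 and no entry for 4720. Symbols of 13544 probe sets were updated through RefSeq (assembly Release 6 plus ISO1 MT) and 103 were kept, which gave 11982 genes, 1094 of them with several probe sets. The members and the 47 gene lists, which hold 1356 distinct genes, were chosen with earlier results of these data known, and lists are described by counts and medians.

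Genes were named by rule: jumu, CHES-1-like and htl, the 15 largest called differences per direction without overlap and with the brighter mean above background, up to 4 members of smallest p per list, and the 6 largest per direction whose control mean lay at least 0.5 from both mutants and between them. Further list members were named after their values were seen. The fit was tested on simulated data. Other normalisations, thresholds, array weights, a minimum change, a replicate block and leaving out each array were tried.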

Additional observations from a re-analysis of the deposited data

Results flagged for a closer look

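In 108 of 5068 called genes, among 11982 measured, the control mean lay between the mutant means and at least 0.5 from each. Of these, 82 were lower and 26 higher in the jumu deficiency. The 6 largest differences per direction are given here. In these genes the mutants stood on opposite sides of the 3 controls they share. The difference itself was tested by the limma contrast of the mutants, and these genes were chosen for this pattern, so their differences from the control describe it and do not support it.

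Among the 6 lower genes, CG18754 had the largest difference, −6.47. It read 5.20, 4.46 and 4.93 in the jumu deficiency arrays, against 11.40, 11.31 and 11.29 in CHES-1-like null arrays, with controls at 9.25 ± 0.04 (SD, n = 3). Against the controls it differed by −4.39 in the jumu deficiency and by 2.08 in CHES-1-like nulls. CG32299 differed by −3.71 between the mutants (−2.51 and 1.20 against the control), CG8563 by −3.47 (−2.45 and 1.01) and CG5568 by −3.42 (−2.14 and 1.28). bcd differed by −3.31 (−2.58 and 0.73) and AGO3 by −3.18 (−1.60 and 1.58).

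Among the 6 higher genes, Pp1-13C differed by 3.86 between the mutants (2.29 in the jumu deficiency and −1.57 in CHES-1-like nulls against the control). Hs3st-A, a heparan sulphate sulfotransferase gene, read 7.11, 6.90 and 7.08 in the jumu deficiency arrays, against 4.03, 3.85 and 3.95 in CHES-1-like null arrays, which lie within background, and differed by 3.08 (1.84 and −1.24). acj6, a POU domain gene of olfactory neurons, read 7.68, 7.74 and 7.91 in the jumu deficiency arrays, against 5.32, 5.35 and 5.17 in CHES-1-like null arrays, and differed by 2.50 (1.08 and −1.41). Zip102B differed by 2.28 (1.78 and −0.51), meep by 2.24 (1.46 and −0.78) and CG17109 by 2.08 (0.94 and −1.14).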

How the results depend on the processing

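Of 19 alternative settings, those without a minimum change left the counts over all probe sets, of each leading list in its more frequent direction and of the arms within 1.5 times of those reported, except that at an adjusted p of 0.01 the Hedgehog genes called lower numbered 5. The small counts of 20 lists in their less frequent direction moved further in 14 lists, by at most 3 genes. Leaving out 1 array in turn gave 2801 to 3106 probe sets higher and 2871 to 3261 lower. Centring each array gave 2720 higher and 3490 lower, or 43.8% of calls higher against 49.1% as reported, and moved the median difference over probe sets to −0.03. The mutants share replicate numbers, but deviations of same-numbered arrays correlated at −0.03, 0.03 and −0.04, so the numbers were not taken as pairs, and a replicate block gave 2973 higher and 3112 lower. In no setting did a call turn its direction. Testing instead for a change beyond 1.5-fold left 368 probe sets higher and 414 lower, by the construction of that test. The genes lower then numbered 18 for mitosis, 4 for replication, 11 for germ cells and piRNA, 7 for early patterning, 3 for neural cells, 10 for epidermis, 6 for trachea, 4 for Hedgehog and 0 for Notch, where 0 also passed in limma at an unadjusted p under 0.05. The genes higher numbered 6 for haemocytes, 5 for basement membrane, 4 for muscle contraction, 1 each for fusion, visceral mesoderm, cardiac mesoderm, aminoacyl-tRNA synthetases and glycolysis, and 0 for mitochondrial ribosomal proteins, the respiratory chain and ribosome biogenesis (1, 0 and 0 in limma at an unadjusted p under 0.05). Called genes per arm were 75 on X, 126 on 2L, 140 on 2R, 130 on 3L, 146 on 3R and 7 on 4, and htl, at 0.85, no longer passed. The number of arrays, 3 per mutant, and signals near background limit the precision. Of 206 named genes 116 kept their direction and their side of the threshold in every setting.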

Other observations

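Single detoxification and immune genes differed by large amounts, while the shares called were near or below the 21.2% higher and 21.1% lower over all genes. Of 117 cytochrome P450 and glutathione transferase genes limma called 26 (22.2%) higher and 17 (14.5%) lower in the jumu deficiency. GstD9, a glutathione transferase gene, read 11.27, 11.29 and 11.35 in the jumu deficiency arrays, against 9.46, 9.36 and 9.37 in CHES-1-like null arrays, and both lay above the controls at 7.89 ± 0.02 (SD, n = 3). Cyp6a23 read 5.75, 5.88 and 5.87 in the jumu deficiency arrays, against 7.86, 7.83 and 7.89 in CHES-1-like null arrays. The mutants did not overlap in either gene, as in 51.7% of all genes. Of 47 genes of immune recognition, lysozymes and serpins 10 (21.3%) were higher and 8 (17.0%) lower, with the lysozyme gene LysX at −1.95 ± 0.07 and the serpin genes Spn47C and Spn43Aa at −1.93 ± 0.08 and −1.66 ± 0.05.

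Of 25 ecdysone and nuclear receptor genes 8 were higher and 8 lower, 32% each way beside 21.2% and 21.1% over all genes. ftz-f1, a nuclear receptor gene that acts in segmentation and later in moulting, read 7.41, 7.47 and 7.27 in the jumu deficiency arrays, against 8.40, 8.53 and 8.47 in CHES-1-like null arrays (−1.09 ± 0.06, limma adjusted p = 8.46e-07). The ecdysone receptor genes EcR and usp were not called, at −0.13 and −0.01. In the DEG/ENaC family 1 of 29 genes, Nach, was higher (3.45%) and 6 were lower (20.7%), among them rpk at −1.04 ± 0.04. In the circadian list 2 of 11 genes were higher (18.2%) and 4 lower (36.4%): beside Clk, the activator gene Pdp1 was lower by 0.97 and per, a repressor of the clock, by 0.33.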
